A study of Mus musculus with 14 samples.

Results

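The genes described here are 8 rows of the 43472 listed in both deposited tables: Csf1, Csf2, Csf3, Il34, Kitl, Tslp, Il7 and Gm16685. They were chosen by symbol, as the colony-stimulating factors and the related growth factors Il7 and Tslp together with the antisense transcript next to Il7, and the choice was made with earlier 5 h results of these data known. Gm16685 in particular was selected on its large rise at 5 h in replicates 2 to 4. The treated and untreated values of these genes at 5 h are therefore given as a description. No p-value is printed for a member, and the number of members called is set beside the share of all genes called, with nothing read from it.

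Primary fibroblasts were grown from tail tips of C57BL/6 mice, scratched as a culture model of a wound, and left untreated (Untreated) or given autologous micrograft (AMG-treated), an extract of minced mouse skin that was filtered, cleared of cells by centrifugation and diluted in growth medium. Every library came from scratched cells in serum-containing medium, so an unwounded state is not among the groups. The 4 time points 1, 5, 12 and 24 h were sampled in replicate 1, and the single time point 5 h in replicates 2, 3 and 4. Of the 14 libraries, 7 were untreated and 7 were AMG-treated, and neither the animals nor the age of the animals behind a replicate number is given.

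Colony-stimulating factors are secreted proteins named for the blood cell colonies that they let grow in culture. Csf1 (M-CSF) and Il34 both act on the macrophage receptor Csf1r, Csf2 (GM-CSF) acts on Csf2ra with the shared beta chain, Csf3 (G-CSF) acts on the neutrophil lineage through Csf3r, and Kitl (stem cell factor) acts on Kit. Il7 and Tslp are short-chain cytokines of the lymphoid and barrier systems whose receptors share the Il7r chain, paired with Il2rg for Il7 and with Crlf2 for Tslp. Fibroblasts are known as a source of several of these factors, while most of the receptors belong to blood cells. The signals run through Jak and Stat5 proteins or, for Csf1r and Kit, through receptor tyrosine kinases, and several of the messengers are short-lived because AU-rich stretches in their tails recruit decay factors.

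Gm16685 is the least familiar member, so its position and a piece of its sequence are shown first. In mm10 with GENCODE M21, Il7 (ENSMUSG00000040329.14) lies on the minus strand at chr3:7569994-7613760 and Gm16685 (ENSMUSG00000097804.1), annotated as an antisense transcript, on the plus strand at chr3:7612705-7690001. The gene spans overlap by 1056 bases at their 5′ ends. Gm16685 has 3 exons, and its first exon of 105 bases lies inside the first exon of transcript Il7-204. These 105 bases are 6.60% of the 1592 exon bases of Gm16685 and 1.85% of the 5664 exon bases of Il7. Exons 2 and 3 start 49.9 and 74.9 kb beyond the 5′ end of Il7, where no Il7 exon is annotated. Exon 2, at chr3:7663617-7663768 on the plus strand, is printed because it belongs to Gm16685 and to no annotated exon of Il7, and the junction shows exon 1 in lower case running into exon 2 in capitals, both 5′ to 3′.
Gm16685 exon 2: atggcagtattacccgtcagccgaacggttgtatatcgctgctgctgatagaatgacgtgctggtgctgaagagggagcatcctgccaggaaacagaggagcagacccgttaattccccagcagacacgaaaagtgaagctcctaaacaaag
Gm16685 junction of exons 1 and 2: tgcattgaagagATGGCAGTATTA

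The other members lie apart from this locus. Csf1 is at chr3:107741048-107760469 (minus strand), Csf2 at chr11:54247271-54249667 (minus), Csf3 at chr11:98701263-98703629 (plus), Il34 at chr8:110741829-110805924 (minus), Kitl at chr10:100015630-100100416 (plus) and Tslp at chr18:32815383-32819797 (plus). Antisense genes share 96 exon bases with Csf2 (Gm12223) and 22 and 75 exon bases with Il34 (Gm15894 and Gm15895). Whether reads were counted by strand is not given in the sources used here, so reads from such shared bases cannot be assigned to a strand. The highest read number of these 3 partners in any library was 1 for Gm12223, 10 for Gm15894 and 12 for Gm15895, all far below Il34 and below Csf2 in treated cells.

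Sequencing gave 12545537 to 34696529 gene-assigned reads per library. The libraries Untreated 5h replicate 1 and AMG-treated 1h replicate 1 stood apart, with 6.34% and 4.62% of reads on ribosomal protein genes against 2.02% to 3.09% in the other 12, and AMG-treated 5h replicate 3 had the smallest treated value of Csf2, Csf3, Il34, Tslp and Gm16685 among replicates 2 to 4. The deposited values are normalised counts, that is, reads divided by a size factor for each library. The 2 tables (replicate 1, and replicates 2 to 4) were scaled separately, so levels are compared only within a table. A count of 0 allows up to 3 reads, which corresponds to a normalised count of 1.62 to 5.22 depending on the library, and floors and intervals cover counting error only. As a check of the labelled cell type, the 10 fibroblast markers summed to 270250 to 675540, against 192 to 852 for the 9 keratinocyte markers. The 11 leukocyte markers summed to 93.3 to 1788, most of it Lyz2 (up to 1541), while Ptprc, the pan-leukocyte marker, reached at most 12.3. Fewer cells of a type and less RNA per cell cannot be told apart in such bulk samples.

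Gm16685 was almost absent from untreated cells and well expressed with AMG. At 5 h the untreated normalised counts of replicates 2, 3 and 4 were 2.20, 0 and 0, which came from 2 reads in all. The AMG-treated values were 310, 66.4 and 481, a mean of 286 ± 208 (SD, n = 3). All treated values lay above all untreated values, and the treated value of replicate 3 was the lowest. Over the summed reads the treated to untreated ratio was 451, with a counting interval (exact binomial, 95%) of 125 to 3735. The log2 fold change on the log2(normalised count + 1) scale was 7.20 with a standard error of 0.86.

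Il7, a cytokine that sustains lymphocyte precursors, did not follow its neighbour. Its untreated values at 5 h were 56.1, 47.3 and 86.5 in replicates 2, 3 and 4, and its AMG-treated values were 104, 40.2 and 77.9. The groups overlapped, with Il7 higher in the treated library of replicate 2 and lower in those of replicates 3 and 4. The ratios were 1.86 (interval 1.30 to 2.69), 0.849 (0.537 to 1.36) and 0.901 (0.669 to 1.20), and the intervals of replicates 3 and 4 included 1. The log2 fold change was 0.17 (SE 0.43).

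The time course came from replicate 1. Gm16685 measured 9.67, 4.92, 4.39 and 5.36 in untreated cells at 1, 5, 12 and 24 h, and 230, 337, 86.7 and 101 in AMG-treated cells. The treated to untreated ratio was 23.7 (interval 12.8 to 48.7) at 1 h, 68.6 (23.3 to 334) at 5 h, 19.8 (8.73 to 55.2) at 12 h and 18.8 (8.83 to 47.8) at 24 h. The value at 5 h rests on 3 untreated reads in the library with the highest ribosomal protein share. Treated Gm16685 was therefore highest at 5 h and lower at 12 and 24 h, yet stayed above every untreated value of the table.

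Untreated Il7 was higher at each later time, with 107, 143, 213 and 343 at 1, 5, 12 and 24 h, whereas AMG-treated Il7 stayed at 143, 95.2, 151 and 107. The Il7 ratio was accordingly 1.33 (interval 0.993 to 1.77) at 1 h, 0.667 (0.503 to 0.889) at 5 h, 0.707 (0.579 to 0.861) at 12 h and 0.312 (0.253 to 0.383) at 24 h. At 24 h the untreated level was thus 3.20 times the treated level. These are single libraries, without a replicate check.

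Counted over all 7 pairs of libraries with the same replicate number and time, Gm16685 was higher with AMG in 7, and Il7 was higher in 2 and lower in 5. The counting interval of the Il7 ratio included 1 at 1 h in replicate 1 and at 5 h in replicates 3 and 4. Expressed per kb of exon, the level of Gm16685 divided by the level of Il7 in the same library ranged from 0 to 0.321 in the 7 untreated libraries, with a median of 0.0734, and from 2.05 to 21.97 in the 7 treated libraries, with a median of 5.88. The lowest treated ratio, AMG-treated 12h replicate 1, was thus above the highest untreated ratio, Untreated 1h replicate 1. Per length, Gm16685 is thus the less abundant of the pair in every untreated library and the more abundant in every treated library. The lengths are all annotated exon bases, 5664 for Il7 pooled over its transcripts and 1592 for Gm16685, and the ratio depends on them. In reads alone Gm16685 was below Il7 in AMG-treated 12h replicate 1 (91 and 158) and in AMG-treated 24h replicate 1 (112 and 119). Since 93.4% of its exon bases lie outside Il7 exons, the shared exon could hold only part of an evenly spread signal, but the tables give no reads per exon, and the strand of the reads was not tested.

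**Figure D1:**
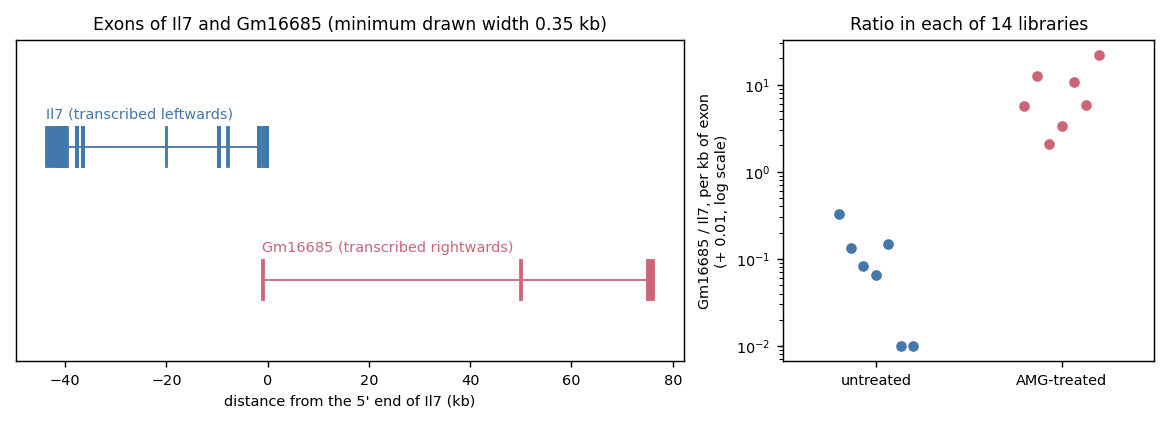
Left, exons (boxes) of Il7 and Gm16685 against the distance in kb from the 5′ end of Il7. Right, the level of Gm16685 divided by that of Il7, both per kb of exon, in each library on a log axis with 0.01 added: the 7 treated libraries lie between 2.05 and 21.97 and the 7 untreated libraries between 0 and 0.321.

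The genes around the locus were few. Within 500 kb of Gm16685 the tables list 6 genes, of which 4 passed the filter of a mean normalised count of at least 10. Besides the pair itself these were Pkia, an inhibitor of protein kinase A, and Zc2hc1a, a zinc finger protein gene beyond the 3′ end of Il7. Pkia had 115 ± 5.31 in untreated and 59.9 ± 14.7 in treated libraries (SD, n = 3), and its adjusted p was 0.112 with limma and 0.0118 with the replicate number as a block. Zc2hc1a had 700 ± 185 and 369 ± 27.2, with an adjusted p of 0.102 and, with the block, 0.00194. Neither value passed the threshold of 0.05 without the block. The remaining listed genes were the small nucleolar RNA Gm23592, with 0 reads in all 14 libraries, and 1700010I02Rik, with 5 reads in all.

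Csf2 was the other member that went from nothing detectable to a clear signal. Its untreated normalised counts at 5 h were 0 in replicates 2, 3 and 4, and its AMG-treated values were 244, 18.9 and 303, a mean of 189 ± 150 (SD, n = 3). Replicate 3 was again the lowest of the treated libraries, although all of them lay above the untreated libraries. Against the floor of 3 reads per library the treated mean was at least 62.2-fold higher. By replicate the bound was at least 74.0-fold in replicate 2, at least 4.51-fold in replicate 3 and at least 187-fold in replicate 4.

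Over time Csf2 was highest early. In replicate 1 the AMG-treated values were 628, 12.4, 17.2 and 23.4 at 1, 5, 12 and 24 h, against 0, 0, 0.732 and 0 in untreated cells. The treated level at 1 h was 50.7 times that at 5 h. Relative to untreated cells, Csf2 at 1 h was at least 238-fold higher, at 5 h at least 2.52-fold higher and at 24 h at least 10.2-fold higher. At 12 h, with 1 untreated read, the ratio was 23.4 (interval 3.70 to 977). The peak at 1 h comes from AMG-treated 1h replicate 1, a library that stood apart by its ribosomal protein share. The 7 mast cell markers, which mark a cell type known to make Csf2, also had their highest summed level in that library, at 216 against 52.7 in the untreated library at 1 h. Most of this sum was Cma1 (203 and 50.1), while Cpa3, Tpsb2 and Tpsab1 were at 0 in both. In Untreated 5h replicate 1 the mast cell markers summed to 162, with 0 reads of Csf2. What part the ribosomal protein share or mast cells have in the Csf2 value at 1 h was not tested.

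AU-rich nonamers, written TTATTTATT, were searched on the transcript strand of the longest coding transcript of each gene, because such stretches in the 3′ untranslated region mark short-lived cytokine messengers. They were found in 7.57% of 21010 genes with an annotated 3′ untranslated region and in 8.29% of the 11831 of these that were tested. Among the 7 coding members only Csf2 holds any, with 4 overlapping copies starting at base 241 of its 317-base region. The 30 bases that hold them are printed 5′ to 3′ as the member's known regulatory stretch, with the nonamers in capitals.
Csf2 AU-rich site: tttaaatatTTATTTATTTATTTATTTATT
The shorter motif ATTTA occurs 9 times in the same region of Csf2, 6 times in that of Csf3 and 14 times in the much longer region of Kitl (4435 bases). A match is a description of the letters and shows nothing about the stability of these messengers in the samples.

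Csf3, the granulocyte factor, was low in untreated cells and higher with AMG at every time. Its untreated values at 5 h were 50.6, 6.96 and 22.2 and its AMG-treated values 368, 111 and 141 in replicates 2, 3 and 4. The groups did not overlap, and the paired ratios were 7.27, 16.0 and 6.37. The means were 26.6 ± 22.1 and 207 ± 140 (SD, n = 3), and the log2 fold change was 3.09 (SE 0.75).

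Unlike Csf2, treated Csf3 changed little over time in replicate 1, with 226, 208, 185 and 172 at 1, 5, 12 and 24 h. Untreated Csf3 went from 40.4 at 1 h to 14.8, 13.2 and 5.36 at the later times. The ratio was 5.59 (interval 3.97 to 8.01) at 1 h and 32.1 (15.3 to 80.8) at 24 h. The ratio at 24 h thus came mostly from the lower untreated level, where 7 reads were counted. At 1 h, where the treated library had the ribosomal protein share of 4.62%, removing the length trend changed the log2 ratio of Csf3 from 2.45 to 1.74.

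Csf1 was by far the most abundant member and was similar with and without AMG. It held 0.148% to 0.454% of all reads of a library and ranked between 14 and 67 among the listed genes by reads. At 5 h the untreated values were 65313, 47451 and 75752 and the AMG-treated values 71289, 57428 and 89352 in replicates 2, 3 and 4. The groups overlapped, but each treated library was above the untreated library of its number, by ratios of 1.09, 1.21 and 1.18. The log2 fold change was 0.21 (SE 0.26).

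Over time in replicate 1, untreated Csf1 was 80680, 33484, 49422 and 43609 at 1, 5, 12 and 24 h and treated Csf1 78732, 57791, 51226 and 46820. The ratio was 0.976 (interval 0.965 to 0.987) at 1 h, 1.73 (1.70 to 1.75) at 5 h, 1.04 (1.02 to 1.05) at 12 h and 1.07 (1.06 to 1.09) at 24 h. The ratio of 1.73 stands out from the 3 other replicates at 5 h, and its denominator is Untreated 5h replicate 1, with the highest ribosomal protein share. No value of that size was seen in any other pair.

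Il34, the alternative ligand of the Csf1 receptor, was higher with AMG in all 4 replicates at 5 h. Untreated values of replicates 2, 3 and 4 were 356, 59.9 and 282, and AMG-treated values were 836, 195 and 1004. The groups overlapped because replicate 3 was low in both, while the paired ratios of 2.35, 3.26 and 3.56 were close to each other. The log2 fold change was 1.58 with an SE of 0.84, and with the replicate number as a block the SE was 0.15.

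In replicate 1, Il34 at 1 h was 188 without and 209 with AMG, a ratio of 1.11 with a counting interval of 0.880 to 1.39 that includes 1. From 5 h on it was higher with AMG, at 685, 565 and 569 against 272, 182 and 225 at 5, 12 and 24 h. The ratios were 2.52, 3.10 and 2.53. Csf1 and Il34, which share a receptor, thus had unlike values: the abundant ligand differed by at most 1.73-fold in any pair, and Il34 by up to 3.56-fold.

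Tslp, an alarm cytokine of skin and other barrier tissues, had the highest treated level per length after Csf1. The untreated values at 5 h were 164, 71.0 and 97.9 in replicates 2, 3 and 4, and the AMG-treated values were 3617, 444 and 2433. The groups did not overlap, and the paired ratios were 22.1, 6.26 and 24.9, again smallest in replicate 3. The means were 111 ± 47.8 and 2165 ± 1603 (SD, n = 3), with a log2 fold change of 3.90 (SE 0.76).

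In replicate 1 Tslp already differed at 1 h, with 711 untreated and 2589 treated, and it stayed higher with AMG at 5, 12 and 24 h, at 5207, 5053 and 2132 against 1357, 307 and 257. The ratio was 3.64 (interval 3.34 to 3.97) at 1 h, 3.84 (3.57 to 4.13) at 5 h, 16.4 (14.9 to 18.2) at 12 h and 8.31 (7.41 to 9.35) at 24 h. At 5 h replicate 1 thus had the smallest ratio of the 4 replicates, with the highest untreated value of its time course in the denominator. The treated library at 1 h and the untreated library at 5 h are those with high ribosomal protein shares (4.62% and 6.34%). Removing the length trend changed the log2 ratio from 1.86 to 1.11 at 1 h and from 1.94 to 2.68 at 5 h.

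Kitl, the ligand of the receptor Kit on mast cells, melanocytes and germ cells, was lower with AMG in 3 of 4 replicates at 5 h. Untreated values of replicates 2, 3 and 4 were 1025, 345 and 675, and AMG-treated values were 438, 412 and 120. The groups overlapped. Replicate 3 went the other way, with a ratio of 1.19 (interval 1.02 to 1.40), against 0.427 and 0.177 in replicates 2 and 4. The log2 fold change was -1.15 (SE 0.59).

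The time course of Kitl in replicate 1 was nearly the same in both groups apart from 5 h. Untreated cells had 1066, 585, 1767 and 2945 at 1, 5, 12 and 24 h, and treated cells 1208, 343, 1953 and 2688. The ratio was 0.587 (interval 0.510 to 0.677) at 5 h, and between 0.913 and 1.13 at the other times. Kitl was thus at its lowest at 5 h in both groups. The untreated value at 5 h, also the denominator of that ratio, comes from the library with the highest ribosomal protein share (6.34%).

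**Figure D2:**
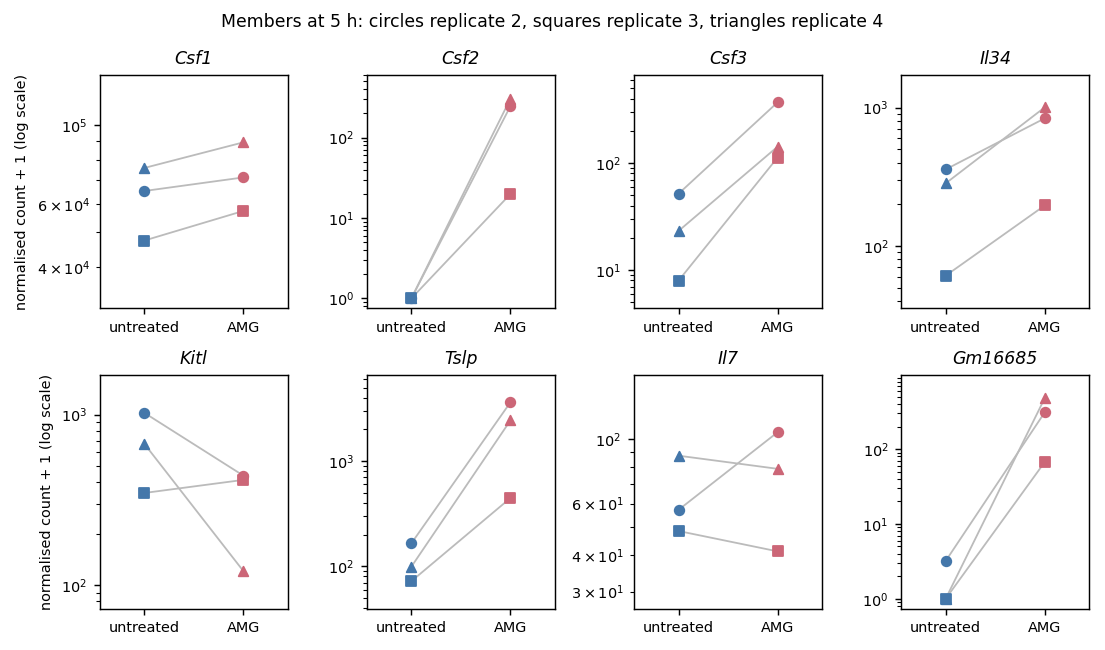
Normalised count plus 1 on a log axis for each member at 5 h, with a line joining the untreated and the AMG-treated library of the same replicate number. Csf2, Csf3, Tslp and Gm16685 have all treated points above all untreated points, while Csf1, Il34, Kitl and Il7 overlap.

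Of the 8 members, all passed the filter on low values, but Csf2 and Gm16685 passed it through the treated libraries only and so had to differ. Treated values lay above all untreated values for 4 of 8 (Csf2, Csf3, Tslp and Gm16685), where 15.1% of the 13096 tested genes showed the same. With limma at an adjusted p under 0.05, 2 members were called higher (Csf2 and Gm16685) and 0 lower, and 0.97% of all tested genes were called higher and 0.267% lower. With the replicate number as a block, 5 were called higher (Csf2, Csf3, Il34, Tslp and Gm16685) and Kitl lower, where 17.9% and 19.3% of all tested genes were called, and the blocked edgeR fit on all 4 replicates called the same number higher and 0 lower. Nothing is read from these member counts, because earlier results of the same contrast were known when the members were chosen. With AMG-treated 5h replicate 3 left out, 4 members were called higher, and with any other of the 6 libraries left out the number was 0.

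In replicate 1, a log2 ratio above 1 was found for 4 members at 1 h (Csf2, Csf3, Tslp and Gm16685) and for these and Il34 at 5, 12 and 24 h. The share of all genes with such a ratio, among the 13498 whose mean there was 10 or more, was 11.3%, 13.3%, 5.93% and 6.05% at 1, 5, 12 and 24 h. A log2 ratio below -1 was found for 0 members at 5 h, where 12.6% of genes had one, and for Il7 alone at 24 h, where 8.05% had one. The share of genes above 1 was larger at 1 and 5 h, the times that include a library with a high ribosomal protein share, whose part in it was not tested.

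**Figure D3:**
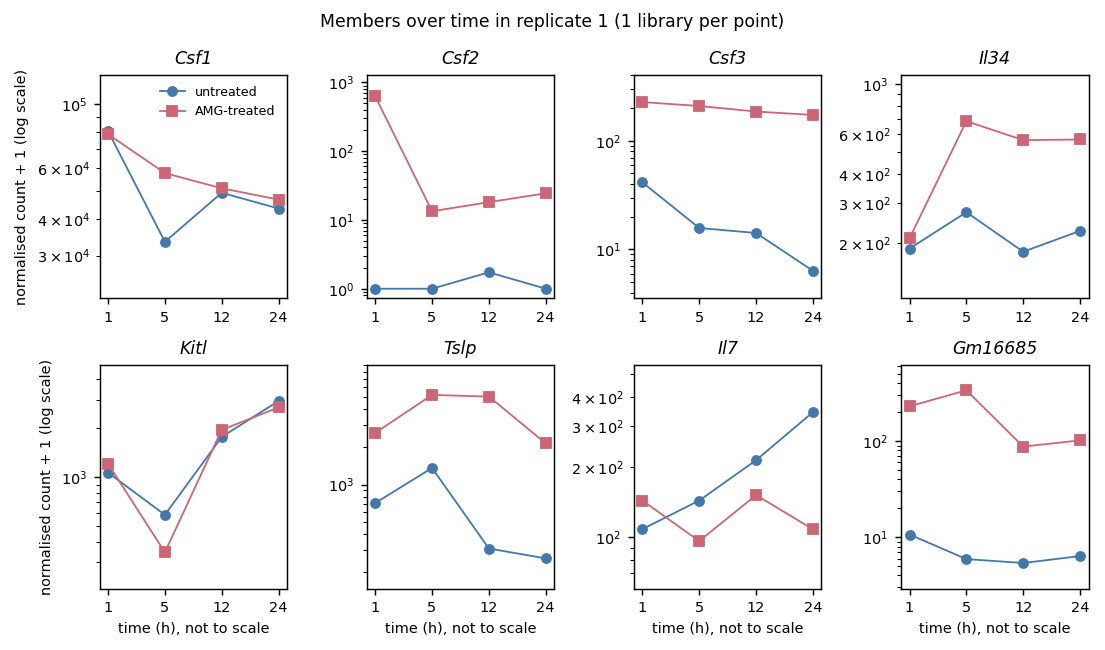
Normalised count plus 1 on a log axis at 1, 5, 12 and 24 h in replicate 1, with 1 library per point. Treated Csf2 is highest at 1 h (628), untreated Il7 goes from 107 to 343, and Kitl is at its lowest at 5 h in both groups.

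**Figure D4:**
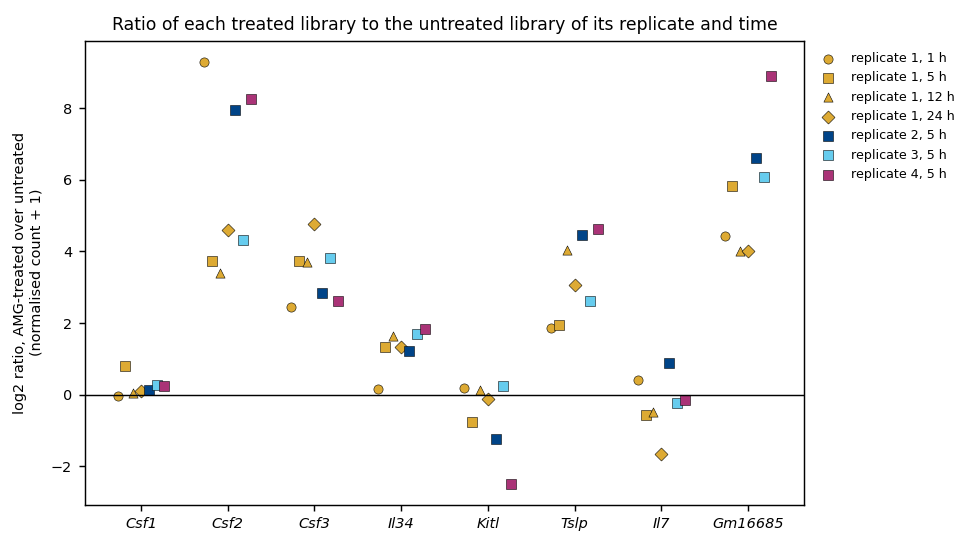
Log2 ratio of each AMG-treated library to the untreated library of its replicate and time, for each member. Csf2, Csf3, Il34, Tslp and Gm16685 lie above 0 in all 7 pairs, and Il7 and Kitl lie on both sides of it.

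Per kb of exon, the order of untreated levels at 5 h in replicates 2 to 4 was Csf1 (11899 ± 2710, SD, n = 3), Il34 (119 ± 78.8), Kitl (115 ± 57.5), Tslp (83.3 ± 35.9), Csf3 (18.8 ± 15.7), Il7 (11.2 ± 3.63), Gm16685 (0.461 ± 0.798) and Csf2 (0). Neighbours in that order whose ranges did not overlap were Csf1 and Il34, Tslp and Csf3, and Il7 and Gm16685. With AMG the order was Csf1 (13764 ± 3031), Tslp (1626 ± 1205), Il34 (346 ± 218), Csf2 (236 ± 187), Gm16685 (180 ± 131), Csf3 (146 ± 99.2), Kitl (54.7 ± 29.9) and Il7 (13.1 ± 5.69). From Tslp down to Csf3 the range of each member overlapped with that of the next, with replicate 3 the lowest library for each. Within each treated library Tslp (2718, 334 and 1828 in replicates 2, 3 and 4) was above Il34 (427, 99.6 and 513). Il34 was in turn above Csf2 (305, 23.6 and 378) in each. The order of Csf2, Gm16685 and Csf3 differed between libraries. The range of Tslp lay wholly above those of Gm16685 and Csf3. Kitl and Il7 were the lowest members per length in treated cells, and the range of Kitl lay apart from those of Csf3 above it and Il7 below it.

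Upstream sequence was held for 3 members, Csf1, Csf2 and Kitl, in RefSeq promoter windows of GRCm38.p6. The windows of 300 bases, 250 before to 50 after a start, were searched on both strands for the NF-kB consensus, the AP-1 motif TGANTCA and the TATA box TATAAA, which are held by 8.46%, 7.81% and 13.6% of all 32851 windows. The 250 bases before the RefSeq start of Csf1 and of Csf2 are shown, with a motif match in capitals. Csf1 was abundant in every library, and Csf2 was detected almost only in treated cells. The Csf1 stretch is chr3:107760470-107760719 and the Csf2 stretch chr11:54249900-54250149, both on the minus strand and both 5′ to 3′.
Csf1 upstream: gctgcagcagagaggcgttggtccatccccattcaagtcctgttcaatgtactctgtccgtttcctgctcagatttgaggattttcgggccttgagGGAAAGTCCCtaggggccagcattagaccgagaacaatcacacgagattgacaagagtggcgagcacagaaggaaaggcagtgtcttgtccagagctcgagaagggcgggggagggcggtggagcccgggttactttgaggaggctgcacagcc
Csf2 upstream: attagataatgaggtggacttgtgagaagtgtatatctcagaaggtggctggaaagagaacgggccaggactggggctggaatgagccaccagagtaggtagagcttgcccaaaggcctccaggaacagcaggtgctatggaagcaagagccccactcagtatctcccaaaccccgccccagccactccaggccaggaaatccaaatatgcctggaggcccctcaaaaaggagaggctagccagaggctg
The Csf1 window holds 1 match to the NF-kB consensus and none to the others. The Csf2 window holds none of the 3, and the start it refers to lies 232 bases upstream of the start in GENCODE M21. The whole Csf2 window (chr11:54249850-54250149) thus lies upstream of the GENCODE gene, and the bases directly before the GENCODE start were not searched. For Csf1 the RefSeq and GENCODE starts are the same, so the windows of Csf1 and Csf2 are not placed alike. The Kitl window holds 1 NF-kB match and 1 TATA box. Absence from a window says only that these letters are not in it.

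The receptors of these factors were measured in the same cells, as the partners through which they act. Of 11 receptor genes, 5 passed the filter, and 0 were called with limma, where 0 had an unadjusted p under 0.05 and edgeR and DESeq2 also called 0. Their median log2 fold change was 0.50, against -0.02 over all tested genes. With the replicate block, where 17.9% of all tested genes were called higher, 3 were higher, namely Crlf2, the Tslp receptor chain (log2 fold change 0.74, adjusted p 0.0208), Il2rg, the common gamma chain (1.65, adjusted p 0.0481), and Sdc1, a syndecan that binds Il34 (0.36, adjusted p 0.0255). These calls were lost in the blocked edgeR fit on all 4 replicates, which called 0 receptor genes. Il2rg had a mean of 5.16 in untreated and 16.6 in treated libraries (n = 3). It thus passed the filter through its treated values, and nothing is read from its call. In replicate 1 at 5 h the ratio was 0.981 (interval 0.862 to 1.12) for Crlf2, 1.30 (0.385 to 5.59) for Il2rg and 1.03 (1.01 to 1.05) for Sdc1.

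Kit had 0 reads in all 14 libraries, Csf3r had 2 reads in all and Il7r had 20. The signalling receptors for Kitl, Csf3 and Il7, and the Il7r chain of the Tslp receptor, were thus at or near the limit of detection. Csf2ra, the ligand-binding chain for Csf2, had 90.7 ± 31.3 in untreated and 131 ± 53.6 in treated libraries at 5 h (SD, n = 3), while the shared beta chain Csf2rb ranged from 0 to 7.03 and from 0 to 23.7. Crlf2, the chain that pairs with Il7r for Tslp, had 190 ± 44.5 and 339 ± 150. Csf1r, a macrophage receptor, had 112 ± 60.2 and 81.4 ± 24.0, with an adjusted p of 0.612 (limma). In replicate 1 Csf1r was lower with AMG at each time, with ratios of 0.530 to 0.657.

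In that replicate the summed level of the 11 listed leukocyte markers, most of it Lyz2, was also lower with AMG at each time. The untreated and treated sums were 1274 and 1172 at 1 h, and 1788 and 441 at 5 h. Over all times they were 1102 to 1788 in the untreated libraries and 351 to 1172 in the treated ones. In replicates 2 to 4 the sum was 93.3 to 1223 in untreated and 143 to 1148 in treated libraries. Of this list 2 genes were at 0 in every untreated library of each table and 1 in every treated library, and the part of these cells in the Csf1r values was not tested. The mast cell markers summed to 40.6 to 162 in untreated and 21.6 to 216 in treated libraries of replicate 1, and to 1.62 to 4.18 in untreated and 2.54 to 3.39 in treated libraries of replicates 2 to 4. The part of mast cells in the values of the members was not tested.

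Of 11 related cytokines, 3 passed the filter and 0 were called by limma (1 at an unadjusted p under 0.05), edgeR or DESeq2. Il3, Il4, Il9, Il13, Il21 and Epo had 0 reads in all 14 libraries. Il5, the eosinophil growth factor, had 20 reads in all. Il15, a relative of Il7 that also uses Il2rg, had a mean of 49.9 in untreated libraries (38.5 to 66.8, n = 3) and 15.7 in treated ones (5.09 to 29.5, n = 3), with no overlap between the groups. Its log2 fold change was -1.87 with an adjusted p of 0.153, and 0.00601 with the replicate block. In replicate 1 Il15 had a ratio of 0.120 (interval 0.0781 to 0.179) at 5 h, 0.380 (0.236 to 0.595) at 12 h and 0.672 (0.433 to 1.03) at 24 h, and 2.97 (1.51 to 5.98) at 1 h. The ratios at 1 and 5 h each involve a library with a high ribosomal protein share. Thpo, the platelet factor, had 31.2 ± 6.07 and 17.4 ± 1.58 (adjusted p 0.240), and Flt3l 20.3 ± 12.3 and 22.7 ± 3.12 (adjusted p 0.748).

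Of 27 signalling genes of these receptors, 25 were tested and 2 rose, both by limma at an adjusted p under 0.05, with 0 falling. Over all 13096 tested genes the same fit called 0.97% higher and 0.267% lower, and this list was chosen with earlier results of these data known. Stat5a, the transcription factor shared by most of the receptors, went from 390 ± 24.2 to 673 ± 27.5 (SD, n = 3), which is 0.79 on the log2 scale (SE 0.13, limma adjusted p 0.0438). Myc, a growth gene downstream of many of them, went from 1265 ± 57.3 to 2176 ± 151 (0.78, SE 0.11, limma adjusted p 0.0375). Other settings gave Stat5a adjusted p values between 8.1e-06 and 0.205, and Myc between 2.95e-07 and 0.181. The median log2 fold change of the list was 0.15. With the block 9 genes (36.0% of those tested) were higher and 3 (12.0%) lower, where 17.9% and 19.3% of all tested genes were called, and the blocked edgeR fit on all 4 replicates called 3. Without AMG-treated 5h replicate 3 the number called was 9, and without any other of the 6 libraries it was 0.

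Over time in replicate 1 the Stat5a ratio at 1, 5, 12 and 24 h was 1.28, 2.11, 0.704 and 0.463, and the Myc ratio was 2.33, 1.54, 1.27 and 1.07. Cish, a feedback gene of Stat5 signalling that was picked here after its values were seen, had 697 in AMG-treated and 148 in untreated cells at 1 h, but 74.3 and 68.8 at 5 h. That 1 h library is again the treated one that stood apart by its ribosomal protein share, and the cause of the Cish value was not tested.

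Of the 6 genes for mRNA decay and stability factors, all were tested, all had a log2 fold change above 0, and 1 rose. Over all 13096 tested genes, 48.4% had a log2 fold change above 0 and limma called 0.97% higher. The list was chosen with earlier results of these data known. Zc3h12a, an endoribonuclease that cleaves cytokine messengers, went from a level of 210 ± 32.2 to 2603 ± 868 (SD, n = 3), which is 3.59 on the log2 scale (SE 0.25, limma adjusted p 0.00567). The call was lost with AMG-treated 5h replicate 2 left out, and 3 genes of the list were called without AMG-treated 5h replicate 3. It was higher in all 7 pairs, and its ratios in replicate 1 were 8.45, 13.2, 9.22 and 8.85 in order of time. With the block, where 17.9% of all tested genes were called higher, 5 of 6 were, and the blocked edgeR fit on 4 replicates called 1. The exception with the limma block was Zfp36 (tristetraprolin), which binds AU-rich elements and had a log2 fold change of 0.15 (adjusted p 0.559, and 0.375 with the block). Elavl1, which stabilises such messengers, had a log2 fold change of 0.57 (adjusted p 0.0618). The other members of the list were Zfp36l1 (0.42), Zfp36l2 (0.76) and Hnrnpd (0.45), and the median over the list was 0.51.

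**Figure D5:**
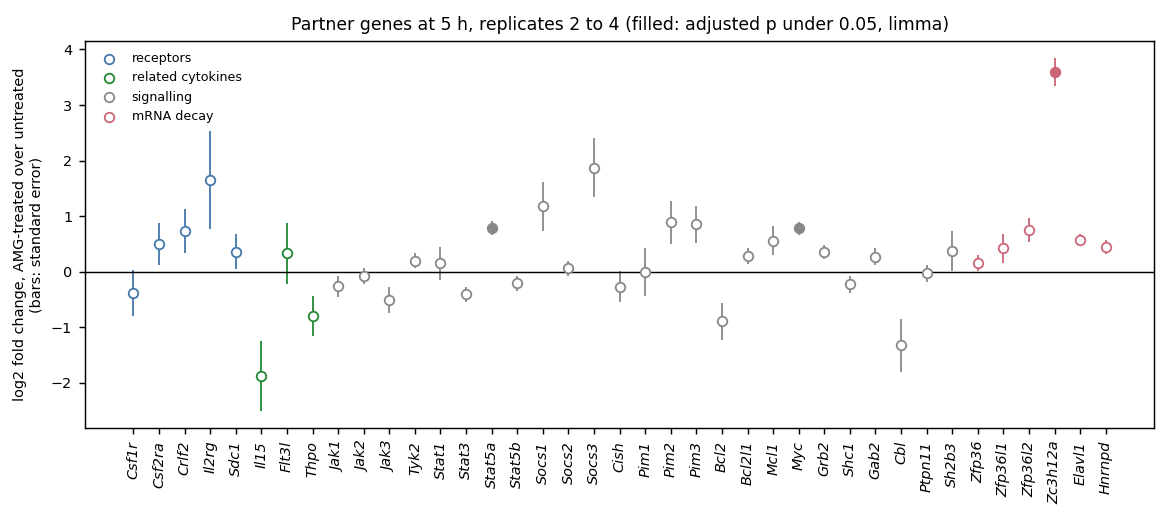
Log2 fold change at 5 h in replicates 2 to 4 with its standard error for every tested receptor, related cytokine, signalling and mRNA decay gene. Filled points, with an adjusted p under 0.05, are Stat5a, Myc and Zc3h12a, and Zc3h12a has the largest value (3.59).

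The genes with values most like those of single members were found by the root mean square difference of log2(normalised count + 1), centred in each table, over 14 libraries among 12843 other genes. Nearest to Gm16685 were Lif, an Il6-family cytokine (0.76), and the chemokine genes Cxcl3 (0.82) and Ccl5 (0.94), where the median gene differed by 3.07. Lif was also nearest to Csf2 (1.00), followed by Cxcl1 (1.01) and Gm16685 itself (1.33). Csf3 lay closest to Syt7 (0.63), U90926 (0.64) and Procr (0.65). Il7, whose own profile varies little, lay closest to Zfp938 (0.28), Ccdc28a (0.29) and E130311K13Rik (0.33), and Csf1 to Ppp1r13l (0.14), D10Wsu102e (0.16) and Sertad2 (0.17). The closest genes to Gm16685 do not include Il7. Nothing is read from this, because the measure follows the size of a change and Gm16685 was selected on its rise in some of these libraries.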

How the data were processed

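Stranded poly(A) libraries of wounded mouse tail fibroblasts were sequenced as single-end reads. Per the study's methods and the submitters' processing notes, the authors aligned reads to mm10 with TopHat2 2.0.13, kept unique alignments and counted them per gene with HTSeq 0.5.3p3. What was deposited is a size-factor normalised signal: the authors divided the read counts by a DESeq factor of each library, separately for the 8 libraries of replicate 1 and the 6 of replicates 2 to 4. The annotation release and the strand setting are not given in the sources used here.

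The values were turned back into whole reads, and 100% came out whole within a tolerance of 0.1. Depth was 12545537 to 34696529 reads per library, and 0 rows named no gene. Groups and replicate numbers came from the sample titles. Nothing says that replicates came from separate animals, so p-values measure only the spread between these libraries. The members and the gene lists were chosen with earlier results of these data known. Treated and untreated libraries of replicates 2 to 4 at 5 h were compared with limma 3.58.1 in R 4.3.3 (trend) on log2(normalised count + 1) (which makes changes of weakly expressed genes look smaller) for 13096 genes with a mean of at least 10. Tests were two-sided, with Benjamini-Hochberg adjustment over all genes tested and a threshold of 0.05. Replicate 1 has 1 library per group and time and was given no p. Its ratios carry exact (Clopper-Pearson) binomial intervals at 95%, for counting error only.

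Replicate numbers paired the libraries: each library was centred on its group mean, and across genes an untreated and a treated library then had r = 0.65, 0.76 and 0.70 where the number was equal, and -0.59 to 0.12 where it was not. The fit with a replicate block is given where it changes a call. Alternatives were pseudocounts of 0.1 and 10, other filters, upper quartile and TMM scaling, removal of a length trend, edgeR 4.0.16 and DESeq2 1.42.0 on the whole reads, and each library left out. On the whole reads edgeR called 135 genes and DESeq2 1434. Only the limma and edgeR fits without the block were tested on simulated data, which held no replicate effect. The text names the members, every tested receptor, related cytokine and mRNA decay gene, the called signalling genes, the genes within 500 kb of Gm16685 and the 3 genes most like 5 of the members. Exon lengths and positions were taken from GENCODE M21, and the planned comparison of member proteins was not run.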

Additional observations from a re-analysis of the deposited data

Results flagged for a closer look

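Csf1 at 1 h in replicate 1 had a log2 ratio of -0.035 (78732 treated, 80680 untreated), whereas all 4 replicates at 5 h had a ratio above 0, from 0.13 to 0.79. The counting interval of the 1 h ratio, 0.965 to 0.987, excludes 1, but there is 1 library per group at 1 h, and the difference between the times was not tested. The treated library at 1 h had 4.62% of reads on ribosomal protein genes. Removing the length trend gave 0.20.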

How the results depend on the processing

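The counts of genes called at 5 h moved with the model and with 1 library more than the values did. Against 2 members called higher, the replicate block, edgeR with the replicate block and edgeR on 4 replicates with the replicate block each gave 5, DESeq2 gave 4, and a pseudocount of 10, a mean of at least 50, limma without the trend and edgeR each gave 1 (Gm16685). Against 0 members called lower, the replicate block with limma or edgeR on replicates 2 to 4 gave 1 (Kitl), and edgeR on 4 replicates with the block gave 0. The blocked fits on replicates 2 to 4 called 3 receptor genes against 0, 1 related cytokine against 0, 12 signalling genes against 2, and 5 mRNA decay genes against 1, for which DESeq2 gave 4. The blocked fit on 4 replicates gave 0, 1, 3 and 1 for these lists. For signalling genes, including all genes above 0 gave 1 and limma without the trend 0. Over all tested genes 162 were called, against 4872 with the replicate block, 4852 with edgeR and the block, 495 with edgeR on 4 replicates, 1434 with DESeq2 and 80 without the trend. Leaving out each library gave 0 to 4 members called higher, 0 to 1 receptor, 0 to 1 related cytokine, 0 to 9 signalling genes, 0 to 3 mRNA decay genes and 1 to 2200 genes in all, the highest in each case without AMG-treated 5h replicate 3. The cause was not tested.

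Log2 fold changes at 5 h kept their sign over 18 alternatives for each member except Il7, which was above 0 in 15 and below in 3 (-0.13 to 0.55). The range was 3.72 to 10.9 for Csf2 and 4.42 to 9.56 for Gm16685, whose fitted size depends on the pseudocount, and 2.39 to 3.73 for Csf3. Of 32 log2 ratios in replicate 1, 30 kept their sign over 5 alternatives, and the 2 that did not, Csf1 and Il34 at 1 h, were within 0.15 of 0. Depth limits what can be said of untreated Csf2 and Gm16685, which rest on 0 to 11 reads per library, and of the receptors near 0.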
